A study of Mus musculus with 16 samples.

Results

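The genes described here are 10 genes of the germline, Rhox5, Trap1a, Dazl, Ddx4, Mael, Asz1, Tex101, Sycp3, Stk31 and Hormad1, measured in blood cell precursors grown from mouse embryonic stem (ES) cells with and without the transcription factor Sp1. They are 10 of the 37149 genes tested on the arrays, and each is read from its brightest probe. Of these 37149, 20122 have a gene symbol. The rest are array targets without one, each counted as a gene in the shares of all genes below. The 10 genes were picked with their difference between Sp1-/- and Sp1+/+ cells already known, so that difference is given below as a description and was not tested. Sp1 is a ubiquitous zinc finger protein that binds GC-rich promoter sequence. The study asked what its absence does to gene expression as ES cells become blood cells, and used 16 one-color Agilent arrays, 2 for each combination of genotype and population.

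Both genotypes are ES cell lines, E14 in the sample names of the Sp1+/+ arrays, and the labels give the strain as C57BL/6. The line name and the strain label were not reconciled here, so the strain of the cells is uncertain. Sp1-/- cells carry mutant alleles that leave a shortened Sp1 lacking its DNA-binding domain, and the sources used here name 1 line for each genotype, so a difference between lines and a difference between genotypes cannot be told apart. Flk1+ cells came from embryoid bodies and contain hemangioblasts, the common precursors of blood and endothelium. After further culture of these cells, HE1 (KIT+ Tie2+ CD41-) and HE2 (KIT+ Tie2+ CD41+), earlier and later stages of hemogenic endothelium, and progenitors (KIT+ Tie2- CD41+) were separated by cell sorting. The design text speaks of independent biological replicates and a supplementary legend of technical ones, so the spread between the 2 arrays of a group may be technical.

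Genes of the germline are silent in most somatic cells. Many of them carry methylated CpG dinucleotides at the promoter in the embryo proper, a mark laid down by Dnmt3a and Dnmt3b and kept by Dnmt1, while repressor complexes with E2F6, MGA or PCGF6 hold others silent. ES cells express some of them. Methylation itself was not measured here, and the name of the group rests on this general knowledge.

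Of the 10 genes, 3 were at least 2-fold higher in Sp1-/- than in Sp1+/+ cells in 1 or more populations. Rhox5 and Trap1a were higher in all 4 populations, and Ddx4 reached 2-fold in Flk1+ cells and progenitors. Mael and Stk31 had smaller differences in most populations, and with an offset of 16 in the normalization each reached 2-fold in 1 population (Mael 1.18 on the log2 scale in Flk1+ cells, Stk31 1.03 in progenitors). Sycp3 was lower in all 4 populations, while Dazl, Asz1, Tex101 and Hormad1 stayed near the background of the array. The values are the deposited log2 intensities. Their normalization adds a constant that lifts dim probes to about 6, so differences between dim values are understated. Each spot also carries the scanner software's flag for a signal well above background.

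All 16 arrays had between 67.0% and 77.1% of spots well above background and 0 saturated spots. The Sp1+/+ arrays shared 1 slide and the Sp1-/- arrays the other, so that genotype and slide cannot be told apart in any difference between the genotypes. The share of spots above background was 67.0% to 72.4% on the Sp1+/+ slide and 69.3% to 77.1% on the Sp1-/- slide, and its part in the results was not tested. Sp1 itself was lower in Sp1-/- cells in each population, by 2.27 to 3.28 on the log2 scale, and stayed well above background on all arrays. Flk1+ mesoderm markers (Kdr, T, Mesp1, Pdgfra, Etv2) were all above background in Flk1+ cells of both genotypes, and T and Mesp1 were not in HE2 cells or progenitors. In bulk RNA, fewer cells of a type and less RNA per cell cannot be told apart.

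The promoters differ in their CpG content. The sequences below are the 250 bases upstream of the RefSeq transcription start (GRCm38.p6), 5′ to 3′ on the gene's strand, with every CpG dinucleotide in capitals. Rhox5 and Trap1a, the genes with the largest differences between genotypes, come first, from chrX:37754358-37754607 (plus strand) and chrX:139333433-139333682 (plus strand).
Rhox5: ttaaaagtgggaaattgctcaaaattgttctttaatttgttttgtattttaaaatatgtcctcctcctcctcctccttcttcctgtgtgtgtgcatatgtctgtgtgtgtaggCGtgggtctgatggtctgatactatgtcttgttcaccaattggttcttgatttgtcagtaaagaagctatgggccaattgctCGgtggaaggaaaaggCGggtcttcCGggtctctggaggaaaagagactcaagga
Trap1a: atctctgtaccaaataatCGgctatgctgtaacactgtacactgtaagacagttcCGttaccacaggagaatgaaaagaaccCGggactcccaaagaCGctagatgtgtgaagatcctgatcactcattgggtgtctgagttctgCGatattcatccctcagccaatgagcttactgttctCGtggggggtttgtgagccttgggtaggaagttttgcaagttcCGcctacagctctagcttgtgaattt
These stretches hold 4 and 7 CpG dinucleotides. The promoters of the autosomal members are richer in CpG, as those of Ddx4 from chr13:112652311-112652560 (minus strand), Mael from chr1:166238745-166238994 (minus strand) and Stk31 from chr6:49395289-49395538 (plus strand) show. They belong to the genes with smaller differences between genotypes.
Ddx4: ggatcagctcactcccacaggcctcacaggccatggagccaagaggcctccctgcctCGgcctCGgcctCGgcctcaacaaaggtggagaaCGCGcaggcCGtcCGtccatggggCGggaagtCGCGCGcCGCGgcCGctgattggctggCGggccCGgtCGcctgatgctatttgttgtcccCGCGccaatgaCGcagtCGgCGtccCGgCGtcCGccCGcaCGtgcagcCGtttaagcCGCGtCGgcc
Mael: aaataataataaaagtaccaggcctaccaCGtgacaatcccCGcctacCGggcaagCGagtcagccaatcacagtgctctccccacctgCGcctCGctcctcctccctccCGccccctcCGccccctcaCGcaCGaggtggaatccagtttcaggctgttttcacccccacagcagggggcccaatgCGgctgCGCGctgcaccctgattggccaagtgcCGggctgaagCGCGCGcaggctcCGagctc
Stk31: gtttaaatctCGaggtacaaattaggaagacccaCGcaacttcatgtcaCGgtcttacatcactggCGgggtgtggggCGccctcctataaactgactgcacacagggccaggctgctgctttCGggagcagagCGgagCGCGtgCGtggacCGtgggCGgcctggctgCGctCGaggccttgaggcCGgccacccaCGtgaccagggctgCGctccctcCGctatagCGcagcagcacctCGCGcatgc
The stretches of Ddx4, Mael and Stk31 hold 31, 18 and 21 CpG dinucleotides. Sycp3, from chr10:88459337-88459586 (plus strand), was lower in Sp1-/- cells, and Dazl, from chr17:50293621-50293870 (minus strand), stayed near background. Their stretches are shown for comparison.
Sycp3: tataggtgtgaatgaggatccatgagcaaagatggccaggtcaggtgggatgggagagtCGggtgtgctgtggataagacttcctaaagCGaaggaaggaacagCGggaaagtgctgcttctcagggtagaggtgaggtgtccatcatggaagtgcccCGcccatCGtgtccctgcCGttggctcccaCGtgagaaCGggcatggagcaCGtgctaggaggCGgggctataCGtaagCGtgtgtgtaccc
Dazl: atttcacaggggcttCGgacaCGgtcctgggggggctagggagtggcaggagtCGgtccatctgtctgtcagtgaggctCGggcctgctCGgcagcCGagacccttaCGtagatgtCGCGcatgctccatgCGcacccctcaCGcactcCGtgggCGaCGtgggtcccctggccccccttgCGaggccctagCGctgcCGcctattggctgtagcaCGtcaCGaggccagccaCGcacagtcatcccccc
Sycp3 has 12 CpG dinucleotides in this stretch and Dazl has 20, so a CpG-rich promoter occurs among members that were higher, lower and near background.

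Rhox5, a homeobox gene of the reproductive cluster on the X chromosome that is made in testis, ovary and placenta, was well above background on all 16 arrays. In Sp1+/+ cells its log2 intensity was 9.12 and 9.31 in Flk1+ cells, 11.23 and 10.85 in HE1 cells, 11.01 and 10.99 in HE2 cells, and 10.21 and 9.73 in progenitors. In Sp1-/- cells it was 14.57 and 14.61 in Flk1+ cells, 15.49 and 15.71 in HE1 cells, 15.54 and 15.81 in HE2 cells, and 15.20 and 15.39 in progenitors. No Sp1-/- array came near any Sp1+/+ array, and the lowest Sp1-/- value exceeded the highest Sp1+/+ value. The difference was 5.38 in Flk1+ cells (41.5-fold), 4.56 in HE1 (23.6-fold), 4.67 in HE2 (25.5-fold) and 5.32 in progenitors (40.1-fold), against SDs within groups of 0.014 to 0.34 (n = 2). Sp1+/+ cells also gave signal on every array, so both sides of the Rhox5 difference were measured above background.

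Trap1a, an X-linked gene for a tumor rejection antigen that is found in placenta and testis, had the same order of groups at every stage. Its log2 intensity in Sp1+/+ cells was 6.44 and 6.54 in Flk1+ cells, 8.12 and 8.12 in HE1 cells, 8.27 and 8.28 in HE2 cells, and 7.87 and 8.11 in progenitors. In Sp1-/- cells it was 9.70 and 9.36, 10.90 and 10.79, 11.41 and 11.19, and 11.70 and 11.28 in the same populations. All 16 arrays were well above background, and the genotypes did not overlap. Trap1a was 8.22-fold higher in Sp1-/- Flk1+ cells, 6.61-fold in HE1, 8.14-fold in HE2 and 11.3-fold in progenitors. The Sp1-/- level was highest in progenitors, where the Sp1+/+ level was below that of HE2.

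Ddx4 (Vasa), an RNA helicase of the germ granule and a classical marker of germ cells, gave its clearest signal in Flk1+ cells. There its log2 intensity was 7.61 and 7.32 in Sp1+/+ and 9.35 and 9.24 in Sp1-/- cells, which is 3.56-fold. In Sp1+/+ cells it was 6.69 and 6.56 in HE1 cells, 6.22 and 6.48 in HE2 cells, and 6.27 and 6.38 in progenitors, with 1 of the 2 arrays above background in each of HE2 and progenitors. In Sp1-/- cells all 8 arrays were above background, at 7.43 and 6.93 in HE1 cells, 7.23 and 7.15 in HE2 cells, and 7.25 and 7.40 in progenitors. The genotypes did not overlap in any population, and the differences were 0.56 in HE1, 0.84 in HE2 and 1.00 in progenitors.

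Mael and Stk31 act in the nuage of male germ cells, Mael in the silencing of transposons by piRNAs, and Stk31 as a kinase-like Tudor domain protein. Mael was above background on all 8 Sp1-/- arrays and on 2 of 8 Sp1+/+ arrays. Its log2 intensity in Flk1+ cells was 6.36 and 6.24 in Sp1+/+ and 7.20 and 6.96 in Sp1-/- cells, a difference of 0.78. In HE1 the Sp1+/+ values of 6.53 and 6.15 overlapped the Sp1-/- values of 6.57 and 6.37. In HE2 and progenitors no Sp1+/+ array was above background, and Mael was at least 1.27-fold and at least 1.31-fold higher in Sp1-/- cells. These bounds set the mean of the bright group against the higher of the dim probe's own value and the lowest value called above background on the same array. In every bound given here the dim probe's own value was the higher, so the bound equals the fitted fold. It concerns the background only and makes no allowance for the spread between arrays or probes.

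Stk31 was above background on 7 of 8 Sp1-/- arrays and on 1 of 8 Sp1+/+ arrays. In Flk1+ cells it read 6.21 and 6.15 in Sp1+/+ and 6.72 and 6.69 in Sp1-/- cells, at least 1.44-fold higher. HE2 (6.40 and 6.41 in Sp1-/- against 5.96 and 6.05) and progenitors (6.56 and 6.64 against 6.07 and 5.97) gave at least 1.32-fold and at least 1.49-fold. HE1 went against this order, because 1 Sp1+/+ array read 7.03 and the other 5.97, on either side of the Sp1-/- values of 6.34 and 6.24. The SD of that Sp1+/+ group was 0.75, more than its difference of -0.21 from Sp1-/- cells.

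Sycp3, a component of the axial element of the synaptonemal complex in meiosis, ran the other way. It was highest in Sp1+/+ Flk1+ cells at 10.59 and 9.68, against 8.75 and 8.64 in Sp1-/- Flk1+ cells, which is 2.71-fold lower. In HE1, HE2 and progenitors the Sp1+/+ arrays read 7.05 to 7.22, all above background, while the Sp1-/- arrays read 6.13 to 6.68, with 4 of 6 above background. The genotypes did not overlap in any population, and Sp1-/- cells were lower by 0.81, 0.63 and 0.75 in HE1, HE2 and progenitors. The SD of the Sp1+/+ Flk1+ pair was 0.64, the widest of any group for this gene.

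The remaining 4 members gave little or no signal. Asz1, an ankyrin repeat protein of the piRNA pathway, and Hormad1, a protein of unsynapsed meiotic chromosome axes, were above background on 0 of 16 arrays, at 5.96 to 6.31 and at 5.98 to 6.26. Dazl, an RNA-binding translational regulator of germ cells, read 5.97 to 6.50 and was above background on 3 of 16 arrays, both Sp1+/+ HE2 arrays and 1 Sp1-/- HE2 array. Tex101, a glycoprotein of the sperm and testis surface, read 6.08 to 6.37 and was above background on 6 arrays. Its flags lay on both Sp1-/- arrays of Flk1+ cells and HE1 and on both Sp1+/+ arrays of progenitors, so its small differences of 0.18 in Flk1+ cells and -0.12 in progenitors had opposite signs. The plot of all 16 arrays shows these patterns side by side.

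**Figure D1:**
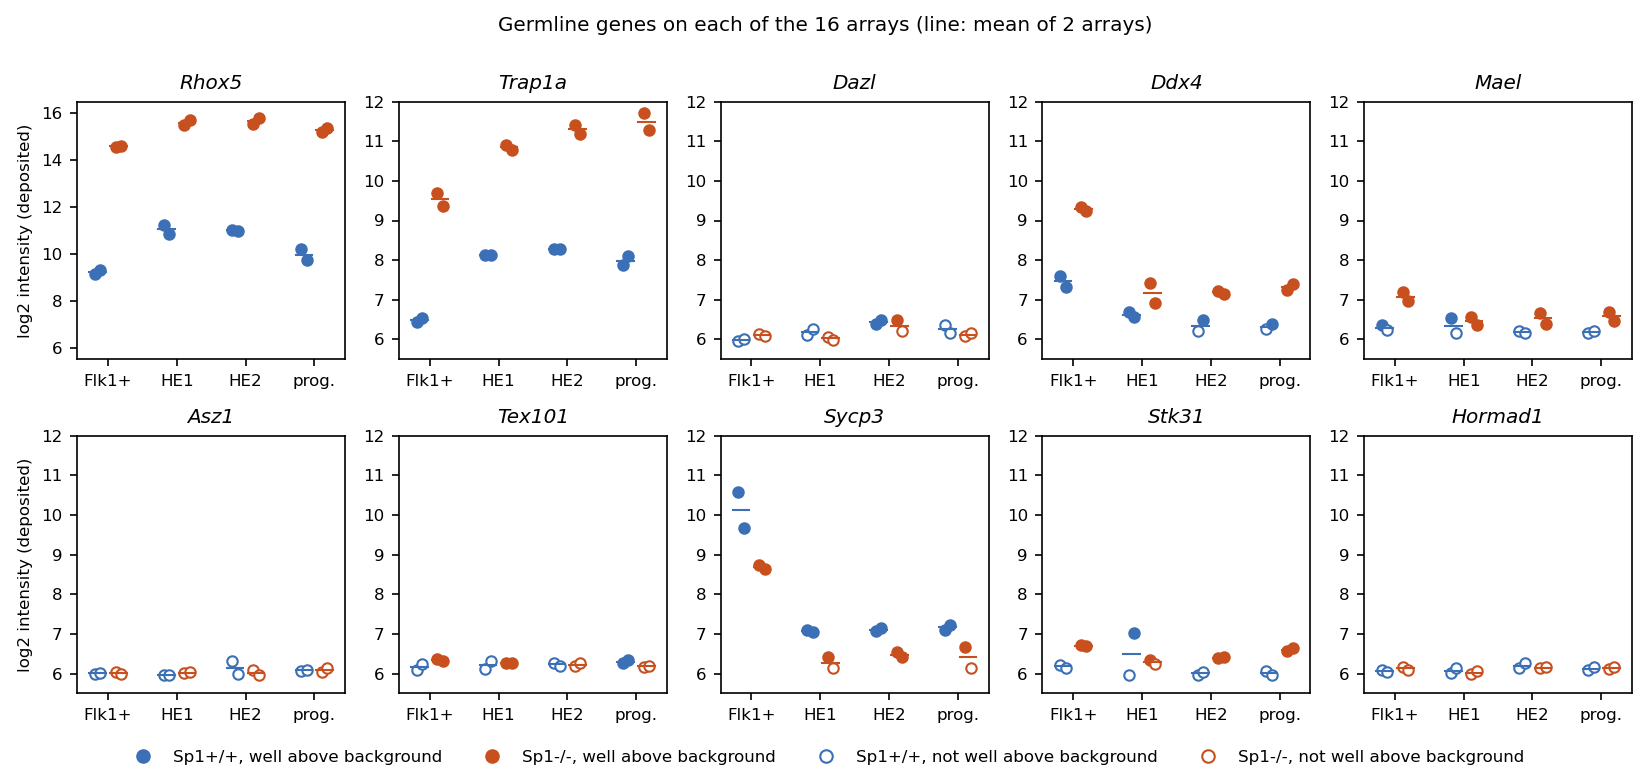
Deposited log2 intensity of each of the 10 genes (vertical axis; Rhox5 has a wider scale) in the 4 populations, with 1 point per array, Sp1+/+ in blue and Sp1-/- in orange. Filled points are well above background, open points are not, and lines are means of 2 arrays. Rhox5 and Trap1a are apart in all populations, Ddx4 is highest in Sp1-/- Flk1+ cells, and Sycp3 is lower in Sp1-/- cells.

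By the flags, a gene can be called switched on where both Sp1-/- arrays and neither Sp1+/+ array of a population were above background. Stk31 met this in Flk1+ cells, HE2 and progenitors, Mael in HE2 and progenitors, and Tex101 in Flk1+ cells and HE1. That is 2, 1, 2 and 2 members in Flk1+ cells, HE1, HE2 and progenitors, while 1.28%, 1.36%, 1.26% and 1.8% of all genes tested met it. The 1 in HE1 is Tex101, whose values of 6.28 and 6.28 in Sp1-/- cells overlapped the 6.12 and 6.33 of Sp1+/+ cells. There the flags differed but the levels did not. The opposite pattern was met by Tex101 in progenitors, and by 0.269%, 0.232%, 0.264% and 1.2% of all genes. By size, 3, 2, 2 and 3 members were at least 2-fold higher in Sp1-/- Flk1+ cells, HE1, HE2 and progenitors, against 0.915%, 1.27%, 0.956% and 1.65% of all genes, and 1 member was at least 2-fold lower in Flk1+ cells, against 1.01%. Because the members were picked for these differences, nothing follows from their excess over all genes. Rhox5 and Trap1a carry the largest differences yet are not switched on in this sense. For the genes that are, the fold is given as a bound against background, which makes no allowance for the spread between arrays.

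The 10 genes were then followed from 1 population to the next within each genotype, a comparison that stays within 1 slide and that did not serve to pick them. Calls needed at least a 2-fold change with p of at most 0.01, before adjustment, in limma's moderated test over all 16 arrays, and p-values below are Benjamini-Hochberg adjusted over all 37149 genes. In Sp1+/+ cells, 3 members changed from Flk1+ cells to HE1, where 8.56% of all genes did. Rhox5 rose by 1.82 ± 0.17 (SE; limma adjusted p = 1.85e-05) and Trap1a by 1.63 ± 0.15 (adjusted p = 1.68e-05), while Sycp3 fell by 3.06 ± 0.25 (adjusted p = 5.72e-06). Ddx4 had a change of -0.84 ± 0.16, short of 2-fold (limma adjusted p = 0.00237).

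In Sp1-/- cells, 4 members changed at this step, against 9.53% of all genes. Rhox5 rose by 1.01 ± 0.17 (limma adjusted p = 0.00108) and Trap1a by 1.31 ± 0.15 (adjusted p = 6.81e-05), the same directions as in Sp1+/+ cells. Sycp3 fell by 2.42 ± 0.25 (limma adjusted p = 2.57e-05) and Ddx4 by 2.12 ± 0.16 (adjusted p = 3.47e-06). Without replicate 1 of Sp1-/- Flk1+ cells or replicate 2 of Sp1-/- HE1, the rise of Rhox5 was 0.99 or 0.90 and no longer reached 2-fold. The difference between the genotypes in these changes was not tested, since it is part of the contrast the members were picked on.

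From HE1 to HE2, 0 members were called in either genotype by limma, and at the unadjusted p of 0.01 none passed either, while 3.32% of all genes in Sp1+/+ and 5.62% in Sp1-/- cells were called. Without replicate 1 of Sp1+/+ HE1, the change of Stk31 at this step in Sp1+/+ cells was -1.02 and was called, since that leaves the array at 7.03. From HE2 to progenitors, Rhox5 fell by 1.03 ± 0.17 in Sp1+/+ cells (limma adjusted p = 0.00977), with 1.75% of all genes called. Without replicate 2 of Sp1+/+ progenitors that change was -0.79 and was not called. In Sp1-/- cells Rhox5 had a change of -0.38 at this step (limma adjusted p = 0.182), and 0 members were called, against 5.01% of all genes.

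**Figure D2:**
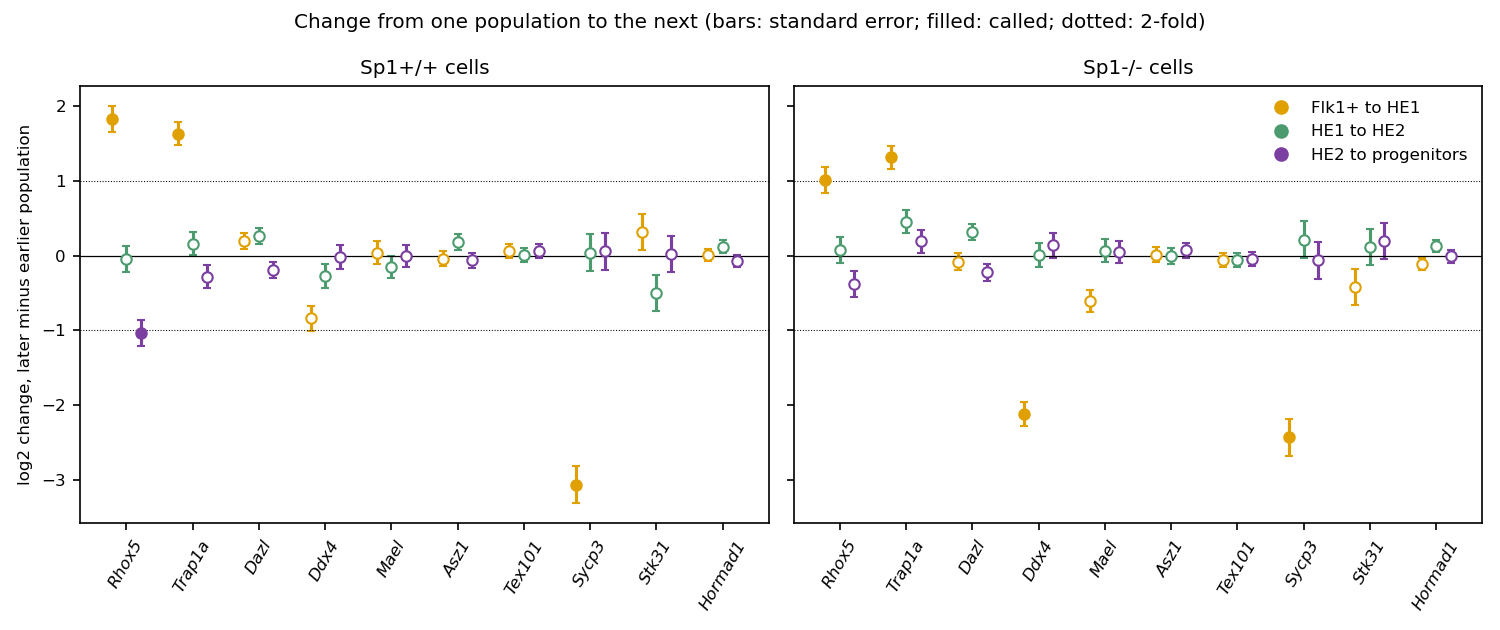
Change in log2 intensity of the 10 genes from each population to the next (vertical axis, later minus earlier), for Sp1+/+ cells on the left and Sp1-/- cells on the right. Points are differences of group means, bars are standard errors of the limma fit, filled points are called, and dotted lines mark 2-fold. The step from Flk1+ cells to HE1 holds 3 of the 4 called changes in Sp1+/+ cells and all 4 in Sp1-/- cells.

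Each member above background on at least 4 arrays was set against all genes with a symbol by Pearson's r over the 16 arrays, which share groups and are not independent points. Rhox5 was most like Dnajc4 (r = 0.974), Trap1a (0.955) and Rbmx (0.955). The arrays of both genotypes enter r, so for every member with a difference between genotypes it in part restates the difference the members were picked on. For Rhox5 and Trap1a it largely does. Mael was most like Rnf17 (r = 0.931), Syce1 (0.930) and Tbr1, the first of which is a Tudor domain gene and the second a synaptonemal complex gene of the lists below. Ddx4 was most like Rbmxl2 (r = 0.955), a testis RNA-binding protein, then Tph1 and Tbx5. Sycp3 was most like Tmem74b (r = 0.982), Pcolce2 (0.979) and Dppa5a (0.977), an ES cell marker. Trap1a was also close to Igsf23 (r = 0.960) and Pi4ka (0.948), and the nearest genes of Stk31 (Ppm1a, Pdilt and Ckb) and Tex101 (Npsr1, Bst1 and Cstdc6) were less like them, at 0.78 to 0.81 and 0.68 to 0.71.

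Lists of 106 other germline genes, 101 of them tested, describe the same contrast outside the 10. They cover the piRNA pathway, meiotic chromosomes, germ cell regulators, testis-restricted genes and X-linked Rhox and testis genes. Like the members, the lists were chosen with earlier results of these data known. Their counts and p-values are therefore descriptions, and nothing follows from an excess over all genes. Of the 101, 8, 4, 5 and 6 were called higher in Sp1-/- Flk1+ cells, HE1, HE2 and progenitors, against 0.781%, 0.974%, 0.778% and 1.51% of all genes. Called lower were 4, 2, 1 and 1, against 0.875%, 1.14%, 1.18% and 2.61%. The medians of the lists together, 0.045, 0.080, 0.025 and 0.065 on the log2 scale, lay beside medians of 0.010 to 0.020 over all genes. In all, 15 of the 101 were called in at least 1 population, and 86 were above background on at least 1 array.

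Among germ cell regulators, Tex19.1, a placental and germline gene that ES cells also use to restrain retrotransposons, had the largest difference. Its log2 intensity in Sp1+/+ cells was 8.59 and 8.84 in Flk1+ cells, 7.55 and 7.82 in HE1 cells, 7.93 and 8.17 in HE2 cells, and 8.00 and 8.38 in progenitors. In Sp1-/- cells it was 10.78 and 10.42, 10.61 and 9.96, 11.27 and 10.92, and 12.01 and 11.58. The genotypes did not overlap, and the difference ran from 1.89 in Flk1+ cells (limma adjusted p = 0.00118) to 3.61 in progenitors (12.2-fold, adjusted p = 8.44e-06). Of the other 19 regulators tested, Tfap2c was called higher in Flk1+ cells by 1.16, with limma adjusted p = 0.0594, while Dnd1 (-1.11) and Tex15 (-1.02) were called lower there and Prdm1 (-1.03) lower in HE1. Tfap2c was 0.83 without replicate 2 of Sp1+/+ Flk1+ cells and 0.92 without replicate 1 of Sp1-/- Flk1+ cells, and Dnd1 was -0.96 without replicate 2 of the latter, each then not called. Tex15 was -0.81 without replicate 1 of Sp1+/+ and -0.98 without replicate 2 of Sp1-/- Flk1+ cells, and Prdm1 was -0.52 without replicate 2 of Sp1+/+ and -0.94 without replicate 2 of Sp1-/- HE1, and these were not called either.

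Among 27 meiotic chromosome genes, Stag3, the meiotic cohesin subunit, was higher in all 4 populations and Syce2, a central element protein of the synaptonemal complex, lower in all 4. Stag3 read 8.55 to 9.04 on the 8 Sp1+/+ arrays and 10.36 to 11.74 on the 8 Sp1-/- arrays, so no arrays overlapped. Its difference was 2.62 in Flk1+ cells (limma adjusted p = 1.48e-06) and 1.79 to 1.94 in the others. Syce2 was lower by 1.22 in Flk1+ cells, 2.12 in HE1 (limma adjusted p = 0.000183), 1.47 in HE2 and 1.41 in progenitors. Smc1b, another meiotic cohesin subunit, was called higher in Flk1+ cells by 1.52 (limma adjusted p = 0.000196), with 0.02 in HE1.

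Tex11, an X-linked gene of meiotic crossover, went from background to a clear signal. No Sp1+/+ array was above background, at 5.99 to 6.26, and all 8 Sp1-/- arrays were, at 7.49 to 8.60. It was at least 5.22-fold higher in Sp1-/- Flk1+ cells (limma adjusted p = 2.65e-07), at least 2.51-fold in HE1, at least 3.16-fold in HE2 and at least 4.45-fold in progenitors. With the mean over its probes in place of the brightest, the difference was 0.73 in HE1 and 0.92 in HE2 and was not called there. Of the 16 testis-restricted and 21 X-linked genes tested, 3 more were called. Rhox13, another gene of the Rhox cluster but not next to Rhox5, was called higher in Flk1+ cells (1.08), HE1 (1.27, at least 2.42-fold) and progenitors (1.51, at least 2.85-fold), Usp26 was called higher in progenitors (1.06), and the protamine gene Prm1 was called lower in Flk1+ cells (-1.12, limma adjusted p = 0.0626). In Flk1+ cells Rhox13 was 0.98 without replicate 2 of Sp1+/+ cells and then not called. Usp26 was 0.94 without replicate 2 of Sp1-/- progenitors and then not called. Prm1 was not called without the same Sp1+/+ Flk1+ array as Rhox13 (-0.75) or without either Sp1-/- array (-1.04 and -1.20).

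In the piRNA pathway, 3 of 17 genes tested were called, all of them higher. Rnf17, a Tudor domain protein of germ cell granules, was 3.52-fold higher in Sp1-/- Flk1+ cells (limma adjusted p = 0.000255), at least 2.07-fold in HE2 and at least 2.27-fold in progenitors. Tdrd12 was called in Flk1+ cells (1.37, limma adjusted p = 0.0041) and Tdrd5 in HE2 (1.58, adjusted p = 0.000464). For Rnf17 in HE2 the difference was 0.81 without replicate 1 of Sp1-/- HE2 and was not called. By the flags, Rnf17 was switched on in HE1, HE2 and progenitors, Fkbp6 in HE2, and Piwil2 and Tdrd12 in progenitors. Over all 101 other germline genes, 2, 3, 5 and 10 were switched on in Flk1+ cells, HE1, HE2 and progenitors, and 0, 1, 0 and 2 had the opposite pattern, read against the shares of all genes given above for the members. Fkbp6 and Piwil2 were named after their values were seen.

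**Figure D3:**
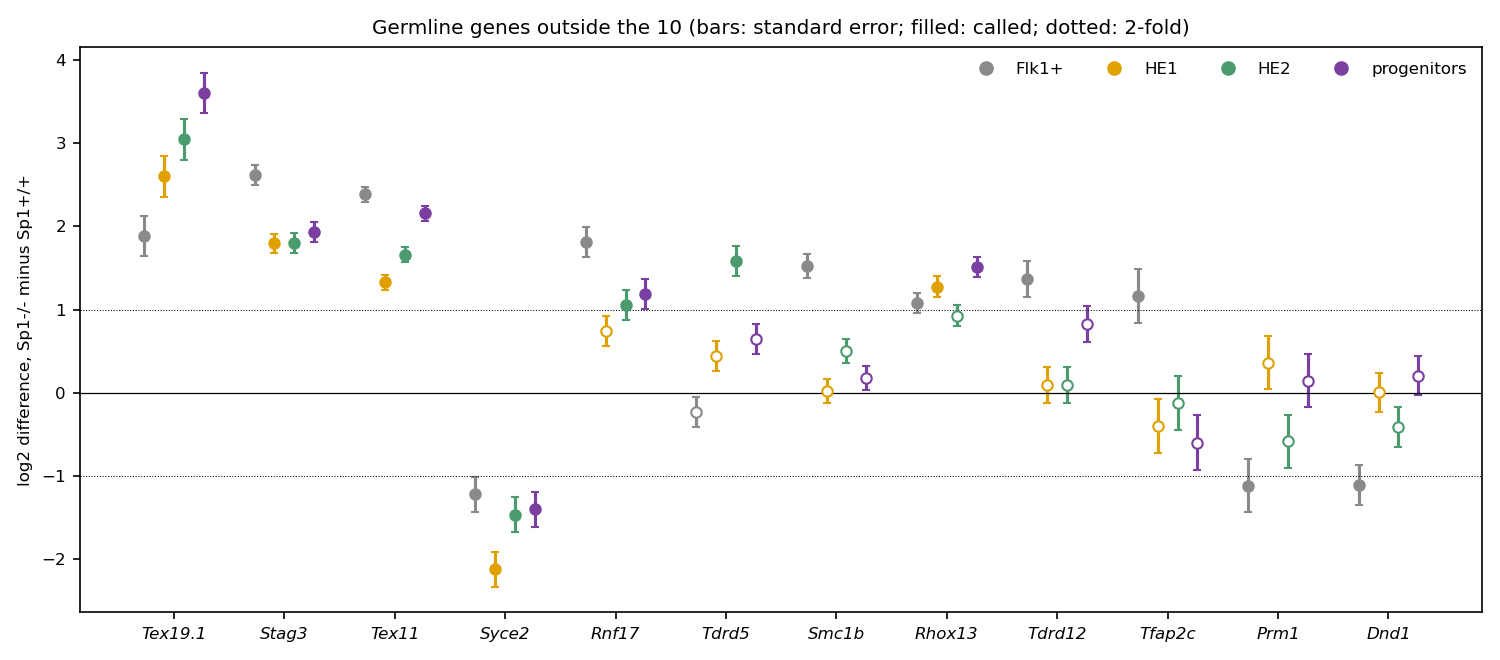
Difference in log2 intensity between Sp1-/- and Sp1+/+ cells (vertical axis) for the 12 other germline genes with the largest called differences, in the 4 populations by color. Bars are standard errors of the limma fit, filled points are called, and dotted lines mark 2-fold. Tex19.1, Stag3 and Tex11 are called higher in all 4 populations and Syce2 lower in all 4, while most of the rest are called in Flk1+ cells.

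Of 9 genes tested that write, keep or remove DNA methylation, none was called by limma in Flk1+ cells, HE1 or HE2. Of all genes, 0.778% to 0.974% were called higher and 0.875% to 1.18% lower there, so no call among 9 is near these shares. In progenitors the shares were 1.51% and 2.61%. Dnmt1 read 12.03 to 12.82 over the 16 arrays, with a difference of 0.24 in progenitors. In progenitors the de novo enzymes Dnmt3a (-1.06 ± 0.15, SE; limma adjusted p = 0.000822) and Dnmt3b (-1.15 ± 0.18; adjusted p = 0.00186) were lower, and the demethylation enzyme Tet3 was higher (1.00, limma adjusted p = 0.00225). Without replicate 1 of Sp1+/+ progenitors, Dnmt3a was -0.99 and Tet3 0.90, and without replicate 1 of Sp1-/- progenitors Tet3 was 0.94, each short of 2-fold. In Flk1+ cells Dnmt3a and Dnmt3b had differences of 0.33 and 0.55 and were not called. The part of these enzymes in the values of the germline genes was not tested. Among 18 genes listed here as possible repressors of germline genes, E2f6, Mga and Pcgf6 included, 0 were called in any population. For a list of 18 that is near the same shares of all genes. Their differences ran from -0.71 (Tfdp1 in Flk1+ cells) to 0.98 (Zbtb16 in HE2), and whether each represses germline genes in these cells was not tested.

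Markers of other cells moved with genotype in some populations, and their part in the values of the germline genes was not tested. Of 7 primordial germ cell markers, Tfap2c was called higher in Flk1+ cells, Prdm1 lower in HE1 and Kit lower in progenitors, while Dppa3 and Prdm14 were below background in HE1, HE2 and progenitors of both genotypes. In Flk1+ cells, where Ddx4 was highest, Dppa3 was above background on both Sp1-/- arrays (mean 6.62) and on neither Sp1+/+ array (6.16), at least 1.37-fold higher and not called (limma adjusted p = 0.0465), and Prdm14 was above background in both genotypes at a difference of -0.59. The mean level of this list was 9.05 to 9.21 on Sp1+/+ and 9.16 to 9.38 on Sp1-/- arrays of Flk1+ cells, and 8.22 to 8.27 and 7.96 to 8.03 in progenitors. Of 7 ES cell markers, Esrrb was higher in Sp1-/- Flk1+ cells (1.51) and Dppa5a lower in all 4 populations (-1.43 to -1.60), and the list's mean was 9.44 to 9.87 on Sp1+/+ and 9.72 to 10.1 on Sp1-/- arrays of Flk1+ cells. Of 6 fibroblast markers, 5 were lower in Sp1-/- progenitors, Col1a1 among them (-4.70), where the list's mean was 7.27 to 7.34 against 9.60 to 10.2. Thy1 was the 1 of the 6 called lower in Flk1+ cells (-1.37), and the list's median difference was -0.41 there, 0.75 in HE1 with 0 called, and -0.43 in HE2 with 0 called. Of 8 trophoblast markers, Eomes and Tfap2c were higher and Cdx2 lower in Flk1+ cells, and Cdx2 and Hand1 lower in progenitors, with Tpbpa below background everywhere and Elf5 in 7 of 8 groups. Of 8 extraembryonic endoderm markers, Foxa2 was higher in Flk1+ cells (2.68) and Gata6 lower in progenitors (-1.55). Of hemogenic endothelium and progenitor markers, Cdh5 and Kit were lower in progenitors and Ptprc higher in HE2 and progenitors, and 0 of 5 Flk1+ mesoderm markers and 0 of 5 sex chromosome markers were called. Of these marker calls, Eomes, Kit, Postn, Prdm1, Tfap2c and, in progenitors, Cdx2 and Ptprc were each lost in limma when 1 array was left out, Eomes at 0.71 without replicate 2 of Sp1+/+ Flk1+ cells and Ptprc at 0.93 without replicate 1 of Sp1+/+ progenitors. With 1 array left out, the smallest differences in progenitors were -1.03 for Kit and -1.42 for Cdx2 (both without replicate 1 of Sp1-/- cells) and -1.97 for Postn (without replicate 1 of Sp1+/+ cells).

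Beside expression, the promoters of the members can be compared with those of all genes. RefSeq start sites gave 32851 windows of 300 bases (250 upstream, 50 downstream) for 27025 genes, and all 10 members had one. The median window holds 7 CpG dinucleotides, with quartiles of 3 and 20. Rhox5 has 5 (percentile 40.8) and Trap1a 8 (percentile 52.8), while the 8 autosomal members have 15 to 38 (percentiles 66.2 to 95.3). Ddx4 has the most. The median over the members' first windows is 21.5 and over 83 other germline genes 13, so the members as a group have CpG-rich promoters and the members with the largest differences do not. This holds for the members only. Of other germline genes called higher, Stag3 has 30 (percentile 88.9), Tex19.1 16 (67.8) and Rhox13 5 (40.8). Rhox1 (0) and Rhox11 (7), also on the X, were not called.

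**Figure D4:**
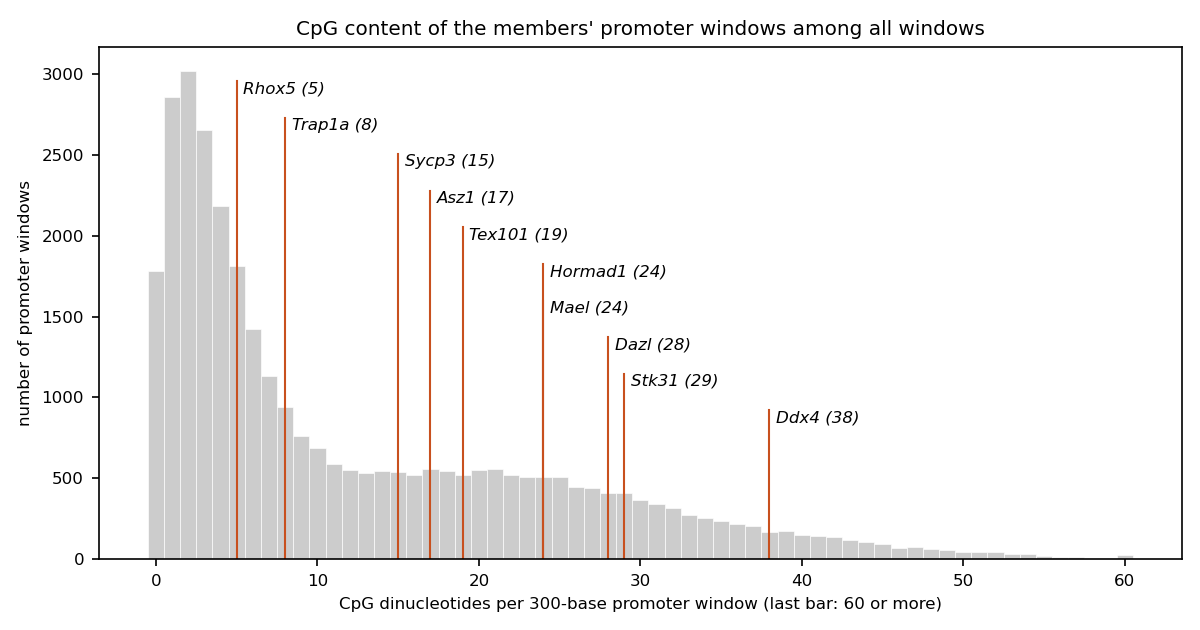
Number of promoter windows (vertical axis) by CpG dinucleotides per window of 300 bases (horizontal axis) over all 32851 windows, with red lines at the first window of each of the 10 genes. Rhox5 (5) and Trap1a (8) lie in the CpG-poor bulk, and the other 8 genes at 15 or more.

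Letters searched on both strands were GGGCGG (the GC box, the kind of site Sp1 binds), CACGTG (an E-box, read by MGA and MAX) and GCGGGA (an E2F site), and a stretch could count for more than 1 of them where they overlapped. The GC box occurred in 6 members (Ddx4, Mael, Asz1, Tex101, Sycp3 and Stk31) and in 35.7% of all windows, and in 33 of the 83 other germline genes. The E-box occurred in 5 (Ddx4, Mael, Sycp3, Stk31 and Hormad1) and in 7.2% of all windows, and in 19 of the 83 other germline genes. The E2F letters occurred in 4 (Ddx4, Mael, Sycp3 and Hormad1) and in 20.0% of all windows, and in 20 of the 83 other germline genes. Rhox5, Trap1a and Dazl hold none of the 3 in these windows. Each of the 3 contains a CpG, and the members' windows hold more CpG (median 21.5 against 7 over all windows), which was not adjusted for. These are matches of letters, and binding was not measured.

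The members lie on 8 chromosomes, with Rhox5 and Trap1a on the X and Asz1 and Stk31 both on chromosome 6. Of the 60 genes nearest to them, 3 tested genes on each side, 1 was called higher in Sp1-/- cells in at least 1 population, against 3.06% of all genes, and 4 were called lower, against 3.8%. The 1 higher was Ctss, a cathepsin gene next to Hormad1, by 1.45 in HE2 and 2.75 in progenitors, while Hormad1 was at background. On either side of Rhox5 lie Rhox4g, Rhox3h, Rhox2h, Rhox6, Rhox7a and Rhox8, genes of the same cluster, with differences of -0.79 to 0.84 and none called. Rhox2h, Rhox3h and Rhox4g belong to families of near-identical copies, whose probes may not tell the copies apart. None of the 6 genes around Trap1a was called higher. Nrk, among these 6, was called lower in 1 population (-1.09 in Flk1+ cells, -1.41 in progenitors).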

How the data were processed

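RNA of the 16 samples was hybridized to one-color Agilent arrays. The authors deposited, for each array, the intensity of each spot and of its local background, extracted with Agilent Feature Extraction (10.7.1.1 in the submitters' processing notes, 10.7.3.1 in the file headers), and a table of normalized log2 intensities. The Supplementary Methods state limma's normexp correction with an offset of 16 and quantile normalization. Recomputed with an offset of 50 on the median intensity, the values differed from the deposited log2 values by at most 0.005, and with an offset of 16 by up to 1.63. The constant compresses dim values.

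Spots marked as outliers were set to missing and spots of 1 probe averaged. Probes with a log2 intensity of at least 6 on 1 or more arrays were kept (55595 of 55681, so the minimum left out few on this scale), probes missing on more than 4 arrays were left out, and each gene was read from its probe of highest mean intensity. Of 37932 target accessions, 20869 were named through a RefSeq table of GRCm38.p6. Every column of the table was mapped to its sample. Flags for signal well above background came from the scanner files.

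A limma fit (R 4.3.3, limma 3.58.1; 8 groups, 8 residual degrees of freedom) was made over all 37149 genes. In a test on simulated data with a log2 change of 1.5 in 200 of 37111 genes, 98.5% were recovered for the comparison in Flk1+ cells and 95.5% for progenitors. All 10 members are named, of the other germline lists the 12 genes with the largest called difference, and of the supporting lists those called. Usp26, Prdm1 and Tex15, called but beyond the 12, and the neighboring genes were named after their values were seen. The members and lists were chosen with earlier results of these data known. Of the 106 listed germline genes, Magea4, Piwil4, Rad21l, Rhox2a and Rhox4b were not analysed here, nor was Tet1 among the methylation enzymes. Promoter windows are RefSeq sequences, and the 50 transcribed bases of each were counted but not printed. Alternatives were other background corrections, the processed signal, dim-probe filters, the mean over probes, a replicate block, other thresholds, separate fits, a Student's t-test and leaving out each array.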

Additional observations from a re-analysis of the deposited data

Results flagged for a closer look

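Some germline genes outside the 10 had differences between Sp1-/- and Sp1+/+ cells that varied between populations. This was tested in the limma fit as the difference in a later population minus that in Flk1+ cells, for the 12 named genes and 3 later populations (36 differences), at an unadjusted p of 0.01 and at least 2-fold. Adjusted p-values are over all 37149 genes. These genes were named because they were called in some population, so a change between populations is partly favored by how they were picked. Tex19.1 had a larger difference in HE2 (by 1.16, adjusted p = 0.182) and in progenitors (by 1.72, adjusted p = 0.0166). Tex11 differed by -1.06 in HE1 (limma adjusted p = 0.00457) and Rnf17 by -1.07 in HE1 (adjusted p = 0.0816). No Sp1+/+ array of Tex11 was above background in Flk1+ cells or HE1, nor any of Rnf17 in HE1, so these are fitted values on the deposited scale and not exact sizes. Tdrd5 differed by 1.81 in HE2 (limma adjusted p = 0.00839). Smc1b differed by -1.51 in HE1, -1.02 in HE2 and -1.34 in progenitors (limma adjusted p = 0.00809, 0.0429 and 0.00441). Tdrd12 differed by -1.28 in HE1 and -1.27 in HE2 (limma adjusted p = 0.0898 and 0.0924), and the value in HE1 is no exact size either, with 0 Sp1+/+ and 1 Sp1-/- array above background there. Tfap2c differed by -1.56 in HE1 and -1.76 in progenitors (limma adjusted p = 0.167 and 0.0541). Prm1 differed by 1.48 in HE1 (limma adjusted p = 0.182), and Dnd1 by 1.11 in HE1 and 1.31 in progenitors (adjusted p = 0.175 and 0.048).

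Among the members and the named genes, Tex101 and Tfap2c had opposite signs in Flk1+ cells and progenitors, without overlap of the genotypes in either. The differences were 0.18 and -0.12 for Tex101, which stayed near background, and 1.16 and -0.60 for Tfap2c. Such a pattern also occurs at background. Dazl was at 0.12 in Flk1+ cells and -0.155 in HE1 without overlap, with 0 arrays above background there. The share of all genes without overlap was not counted. The difference between these signs was not tested for Tex101, a member picked on this contrast.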

How the results depend on the processing

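Differences between genotypes lie on separate slides, each group has 2 arrays, and the deposited scale compresses dim genes. With an offset of 16, 5 members rather than 3 were at least 2-fold higher in some population, and with the processed signal also 5, Mael and Stk31 being the added genes. With the processed signal, other germline genes called higher were 11 in HE1, 10 in HE2 and 12 in progenitors, and 1 member changed from HE1 to HE2 in Sp1+/+ cells (Ddx4, by -1.42). Stk31 in HE1 had a difference of 0.39 with the processed signal, against -0.21. A Student's t-test was tried in place of limma, which the Supplementary Methods state for the arrays. It called 3 other germline genes higher in Flk1+ cells. It called 1 member from Flk1+ cells to HE1 in Sp1+/+ cells, 0 from HE2 to progenitors in Sp1+/+ cells and 1 from Flk1+ cells to HE1 in Sp1-/- cells. After Benjamini-Hochberg adjustment this t-test called 0 of all genes at each of these steps and in Flk1+ cells. Leaving out 1 array, other germline genes called higher ranged from 6 to 8 in Flk1+ cells, 4 to 8 in HE1 (8 without replicate 1 of Sp1-/- HE1), 5 to 6 in HE2 cells and 5 to 8 in progenitors, and members that changed ranged from 0 to 1 from HE1 to HE2 and 0 to 1 from HE2 to progenitors in Sp1+/+ cells, and 3 to 4 from Flk1+ cells to HE1 in Sp1-/- cells. Tfap2c and Prm1 in Flk1+ cells were not called at an adjusted p of 0.05. Same-numbered arrays deviated together with r of -0.17 to 0.50 over pairs of groups, highest for Sp1+/+ HE1 with Sp1+/+ HE2. The numbers were not taken as pairs in the main fit, although HE1 and HE2 arrays of 1 number may share a culture. With the replicate block, the counts of other germline genes called higher were 8, 4, 5 and 6, and 3 members remained the number at least 2-fold higher, as without the block.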
